A study of Homo sapiens with 24 samples.

Results

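The 39 genes described here act in DNA replication or in the step from G1 into S phase. They were listed by name and are 39 of 19775 genes measured. Each was represented by its probe set with the highest mean level over the 24 arrays. All 39 were measured, and 37 of them had a mean level above the median gene's 7.93 on the log2 scale of the arrays. Their levels were set out by the arrays' labels and by the level of 1 TACC3 probe set, with a cut, given by the rule that defined the gene set, between levels of 11.43 and 11.82 on that scale.

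The cells were RT112, an established line from a human bladder cancer that is known to carry a fusion of the receptor tyrosine kinase FGFR3 with TACC3, a protein of the mitotic spindle. Per the labels, they carried a doxycycline-inducible hairpin RNA against EGFP, a control target that human cells lack, or 1 of 3 hairpins against FGFR3, named 2-4, 4-1 and 6-16. Each of these 4 lines was cultured in 1% fetal bovine serum for 48 h without doxycycline or with it at 1 µg/ml. This gave 8 labelled groups of 3 arrays, named here by line and by with or without doxycycline. All groups therefore shared the low serum, and in the groups without doxycycline the hairpin was present but not induced. Whether the 3 arrays of a group came from separate cultures, and whether a line was 1 clone, is not stated in the sources used here, so the p-values measure only the spread between these arrays, which may be technical.

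The arrays did not sort by their labels. The targeted gene, FGFR3, has 2 probe sets. The brighter one had log2 changes with doxycycline of 0.16, 0.15, -0.24 and 0.42 in the lines labelled EGFP, 2-4, 4-1 and 6-16 (SE 0.31 each), and limma's adjusted p was 0.760 or higher. On the dimmer one they were 0.44, 0.17, 0.29 and -0.83 (SE 0.62 each), and in a limma fit of all probe sets the adjusted p was 0.717 or higher. The signs of the 2 probe sets differed in 4-1 and 6-16. Over the 2000 most variable genes, the array nearest to each array carried the same label for 0 of 24 arrays. All groups below are therefore named as the arrays labelled so. The match of labels to arrays could not be checked against another record here. If it does not hold for some arrays, the label comparisons below, with their group means and counts of calls, do not compare the named treatments. The epithelial origin was borne out, with a median level of 12.35 to 12.88 over 12 bladder epithelial markers on each array, although the urothelial gene UPK3A lay between 6.96 and 7.43 and the basal keratin KRT14 between 5.49 and 7.38. Medians were 7.20 to 7.47 over 10 fibroblast markers and 6.37 to 7.04 over the 8 measured leukocyte markers, under the median gene's level. Single markers were higher: LUM lay at 12.84 to 13.56, COL1A1 at 9.02 to 9.39 and DCN at 8.02 to 8.50 among the fibroblast genes, and CD3E at 8.20 to 8.60 and CD79A at 8.15 to 8.72 among the leukocyte genes.

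Before S phase, the origin recognition complex (ORC), CDC6 and CDT1 load the ring of MCM2 to MCM7 onto origins, a step called licensing. MCM10, CDC45 and the GINS complex then turn the ring into an active helicase, polymerases with the clamp PCNA and its RFC loader copy the strands, and FEN1 and LIG1 join the lagging strand. Most of these genes are known targets of E2F factors, which are released when cyclin D kinases inactivate the retinoblastoma protein, a step that growth factor signalling promotes.

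E2F factors bind near the start sites of these genes, so the reference promoters of 5 members are printed here as examples of the patterns of level described below. They are RefSeq sequences of the assembly GRCh38.p14, 150 bases up to the transcription start, written 5′ to 3′ on the gene's own strand. Capitals mark matches to TTTCCCGC, TTTCGCGC, TTTGCCGC or TTTGGCGC, the E2F letters searched on both strands. MCM6 (chr2:135876444-135876593, minus strand) and PCNA (chr20:5126623-5126772, minus strand) were graded over the arrays. TYMS (chr18:657503-657652, plus strand) was low on 3 arrays, and E2F1 (chr20:33686386-33686535, minus strand) and CCNE1 (chr19:29811841-29811990, plus strand) were low on 9.
MCM6: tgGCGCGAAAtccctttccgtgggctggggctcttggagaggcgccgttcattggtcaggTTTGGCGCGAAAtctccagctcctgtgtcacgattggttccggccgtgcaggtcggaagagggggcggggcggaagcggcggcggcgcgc
PCNA: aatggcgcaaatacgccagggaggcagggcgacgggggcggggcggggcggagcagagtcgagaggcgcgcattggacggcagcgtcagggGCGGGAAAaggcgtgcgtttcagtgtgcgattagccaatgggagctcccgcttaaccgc
TYMS: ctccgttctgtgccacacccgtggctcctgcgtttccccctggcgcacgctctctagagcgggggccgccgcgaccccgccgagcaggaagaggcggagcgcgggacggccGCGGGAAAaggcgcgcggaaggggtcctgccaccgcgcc
E2F1: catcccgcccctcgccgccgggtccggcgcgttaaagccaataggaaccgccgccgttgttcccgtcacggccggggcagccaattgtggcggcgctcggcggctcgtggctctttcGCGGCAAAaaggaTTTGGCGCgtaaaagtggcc
CCNE1: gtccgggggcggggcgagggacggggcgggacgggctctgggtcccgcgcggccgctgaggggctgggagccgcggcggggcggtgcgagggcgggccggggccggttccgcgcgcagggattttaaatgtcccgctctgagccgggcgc
In MCM6 a match on each strand overlaps in 1 run of capitals, and the promoter of CCNE1 held no match in its 300 bases.

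Promoters running from 250 bases before to 50 after the start were matched for 35 of the 39 members. An E2F match was found in 20 of these 35 (57.1%), and 5 held several. Among all 27305 promoters of the same length, 908 (3.33%) held one. Of the 27 sites in the members, 17 began within 100 bases before the start and 4 began after it. The first bases of the pair in E2F1 lay 33 and 20 bases before the start, counted as -33 and -20, and those of MCM6 lay at -152, -148, -90 and -86. The shorter letters CCAAT, bound by NF-Y, were in 20 of the 35 (57.1%) against 35.7% of all promoters. In the further replication genes and G2/M genes listed below, CCAAT was in 21 of 35 promoters (60%) and 15 of 17 (88.2%). E2F matches were in 11 (31.4%) and 3 (17.6%) of these. These matches describe the letters only. Of 18 members with a promoter and a graded pattern, 11 held an E2F match, and so did 7 of the 13 that were low on 3 arrays only.

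Most of the genes were low on the same arrays, and these arrays carried different labels. TACC3 lay below the cut on 9 arrays, at 10.49 to 11.43, and above it on 15, at 11.82 to 12.62. Of the 8 labelled groups, 5 held 1 of the 9 low arrays, 2 held 2 and 1 held 0. TACC3 itself is a gene whose message is known to vary over the cell cycle. Whether its probe set read that message or the message of the fusion with FGFR3 was not tested. By label, its log2 changes with doxycycline were 0.19, 0.28, 0.32 and -0.71 in EGFP, 2-4, 4-1 and 6-16 (SE 0.46 each). Limma's adjusted p for these was 0.735 or higher. The sides of the cut come from a measured level and mix labels, so they are described with no test, and no treatment is assigned to either side. The dimmer FGFR3 probe set also lay lower on all 9 low arrays, at 8.71 to 9.88 against 10.34 to 11.20, while the brighter, at 11.13 to 12.20 against 11.36 to 12.34, overlapped.

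Within the 9 low arrays TACC3 had a gap. The 3 lowest arrays were 2-4 without doxycycline replicate 2 at 10.49, 6-16 with doxycycline replicate 2 at 10.64 and 4-1 without doxycycline replicate 1 at 10.79. The next lay at 11.31. The other 6, called intermediate here, were EGFP without doxycycline replicates 1 and 3, EGFP with replicate 3, 2-4 with replicate 2, 4-1 without replicate 2 and 4-1 with replicate 1. The division into 3, 6 and 15 was made after the values were seen.

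Of the 39 members, 35 (89.7%) had their 3 lowest levels on exactly these 3 arrays, with no overlap with the other 21. Over all genes this share was 4.06%. The 4 exceptions, on the brightest probe sets used here, were RFC5, CCNE1, E2F1 and CDC25A. Of the 4 genes of G1/S control, 1 (CCNE2) was thus lowest on the 3 arrays on these probe sets. Dimmer probe sets of RFC5, E2F1 and CDC25A were lowest there, as set out below. On all 9 low arrays together, 22 members (56.4%) lay below all 15 upper arrays, against 3.09% of all genes. The 6 intermediate arrays alone lay below the 15 for 22 members (56.4%), against 6.33% of all genes. In bulk RNA, fewer cells in S phase and less RNA per cell cannot be told apart in any of these values.

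These counts made 3 patterns. A graded pattern, with the 3 arrays below the 6 and the 6 below the 15, held for 20 members (51.3%) against 0.637% of all genes. Another 15 (38.5%) were low on the 3 arrays only, with the 6 overlapping the 15, against 3.42% of all genes. For CCNE1 and E2F1 the 9 arrays lay under the 15 while the 3 overlapped the 6, a step found for 2.46% of all genes. RFC5 and CDC25A met none of these on their brightest probe sets.

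The median member, taken as the level minus the gene's own mean over 24 arrays, was -0.85 to -0.79 on the 3 lowest arrays, -0.24 to -0.02 on the 6 and 0.06 to 0.38 on the 15. The 3 lowest arrays held the single lowest value of 16, 9 and 12 members. At the other end, 4-1 without doxycycline replicate 3 was highest for 17 members and 2-4 with doxycycline replicate 3 for 10. Low and high arrays therefore occurred in the same labelled lines.

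**Figure D1:**
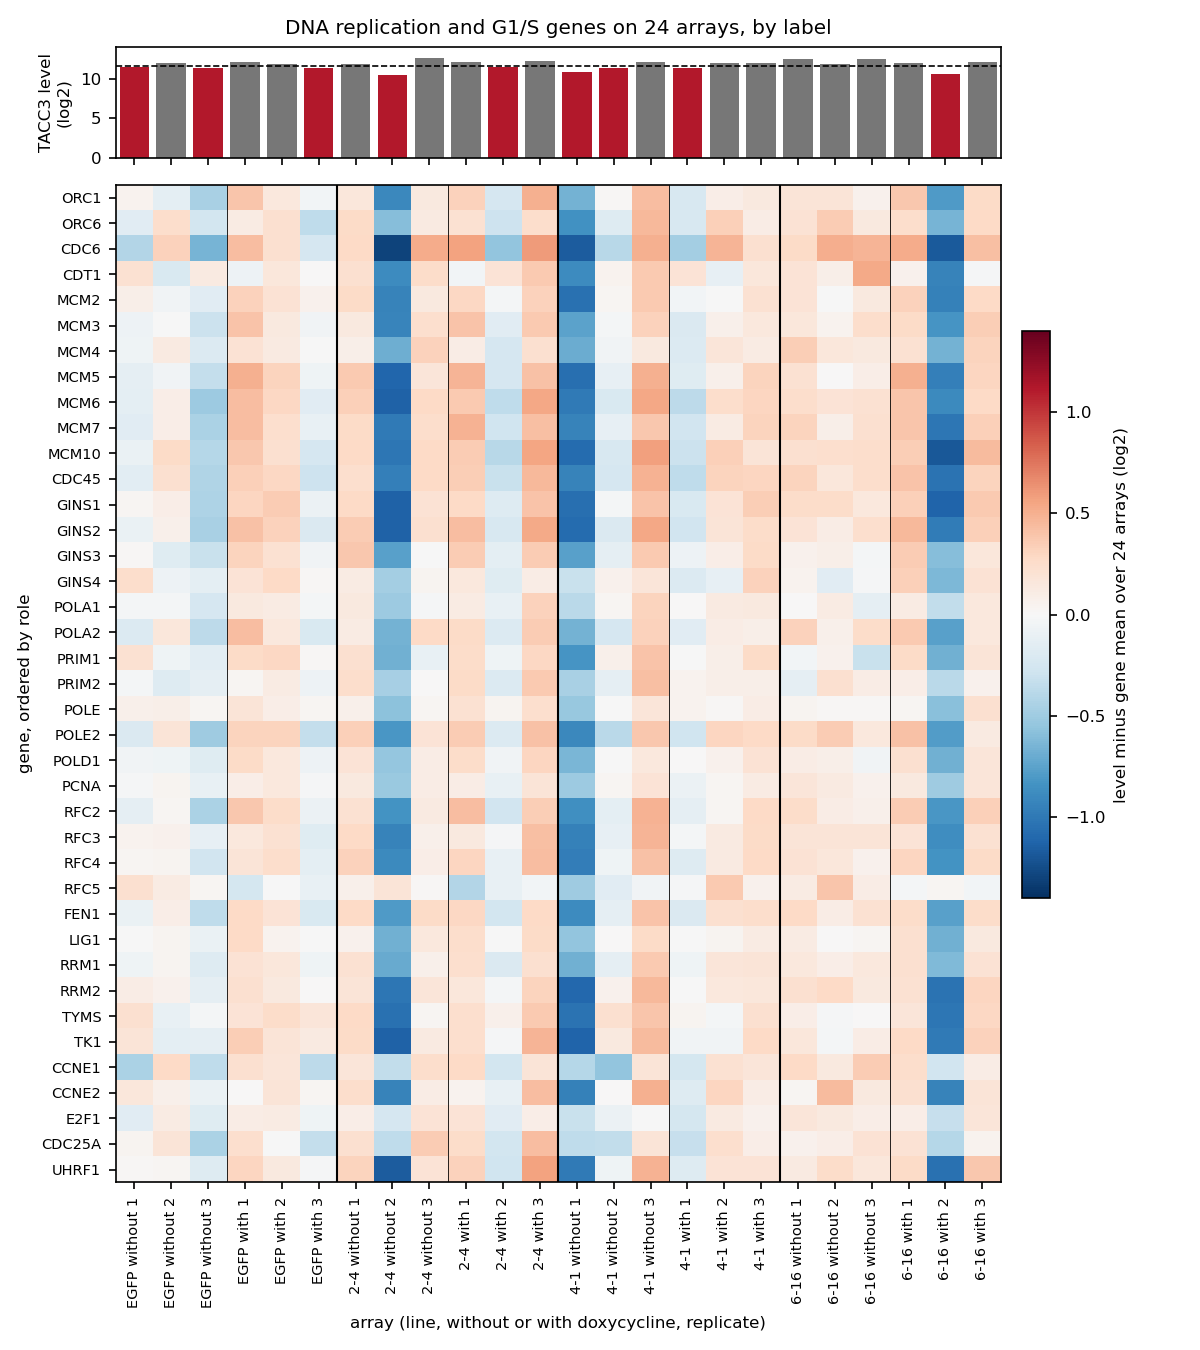
Heat map of the 39 genes (rows, by role) on the 24 arrays (columns, by label), coloured by log2 level minus the gene's mean over the 24 arrays, with the TACC3 level (log2) of each array as bars above and the cut dashed (red bars below it). The blue columns are 2-4 without replicate 2, 4-1 without replicate 1 and 6-16 with replicate 2, where the median member lay -0.85 to -0.79 from its mean.

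Among the licensing factors, ORC1 and ORC6 are subunits of the complex that marks origins, CDC6 is the ATPase that works with it and CDT1 brings in the MCM ring. CDC6 had the widest range of all members, 1.89 on the log2 scale or 3.71-fold. CDC6 had levels of 8.48, 9.22 and 8.24 without and 9.32, 9.11 and 8.65 with doxycycline on the arrays labelled EGFP. In the line labelled 2-4 these were 9.17, 7.60 and 9.41 without and 9.46, 8.34 and 9.49 with doxycycline, and in 4-1 they were 7.72, 8.50 and 9.39 without and 8.41, 9.37 and 9.11 with it. In 6-16 CDC6 had 9.16, 9.40 and 9.37 without and 9.41, 7.71 and 9.31 with doxycycline. The lowest values stood in 2-4 without, 4-1 without and 6-16 with doxycycline, beside values over 9 in the same groups. On the 3 lowest arrays CDC6 lay at 7.60 to 7.72, on the 6 intermediate ones at 8.24 to 8.65 and on the 15 upper ones at 9.11 to 9.49, so the 3 sets did not overlap.

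ORC6 was graded as well, at 9.14 to 9.39, 9.63 to 9.83 and 10.09 to 10.44. CDT1 was not: it lay at 10.06 or less on the 3 lowest arrays, but at 10.95 to 11.15 on the 6, inside the 10.72 to 11.47 of the 15. ORC1, at 6.85 to 7.09, 7.30 to 7.80 and 7.62 to 8.25, also overlapped between the 6 and the 15. Of the 4 licensing factors, CDC6 and ORC6 thus separated all 3 sets of arrays.

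The MCM ring, the core of the replicative helicase, had 6 of 6 subunits lowest on the 3 arrays and 5 of 6 graded on the brightest probe sets. MCM6 had levels of 10.90, 11.14 and 10.53 without and 11.48, 11.34 and 10.88 with doxycycline on the arrays labelled EGFP. In the line labelled 2-4 these were 11.38, 9.91 and 11.32 without and 11.41, 10.69 and 11.58 with doxycycline, and in 4-1 they were 10.05, 10.83 and 11.58 without and 10.68, 11.29 and 11.35 with it. In 6-16 MCM6 had 11.29, 11.23 and 11.26 without and 11.43, 10.16 and 11.32 with doxycycline. By set these were 9.91 to 10.16, 10.53 to 10.90 and 11.14 to 11.58. MCM5 lay at 10.05 to 10.20, 10.82 to 11.09 and 11.10 to 11.66, and MCM7 at 10.05 to 10.13, 10.62 to 10.96 and 11.15 to 11.55. The gap between the 6 and the 15 was thus narrow for MCM5 and wider for MCM6 and MCM7. MCM3 (11.35 to 11.63 against 11.65 to 12.05) and MCM4 (11.39 to 11.61 against 11.70 to 11.96) were separated between the 6 and the 15 too. For MCM4 this depended on the probe set. A dimmer one was separated as well, with the 9 low arrays up to 9.54 and the 15 from 9.67. Others overlapped, with the 9 up to 10.82 and the 15 from 10.77, or up to 9.02 and from 8.85. The dimmest was not lowest on the 3 arrays. MCM2 was the exception, since its 12.15 to 12.39 on the 6 arrays overlapped 12.26 to 12.68 on the 15, although it lay at 11.27 to 11.37 on the 3 lowest.

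Of the factors that activate the helicase, MCM10, which stabilises the opened helicase, had the second widest range, 1.76 or 3.39-fold. It lay at 7.93 to 8.10 on the 3 lowest arrays, 8.72 to 9.03 on the 6 and 9.30 to 9.69 on the 15. CDC45, a fixed part of the moving helicase, lay at 8.20 to 8.30, 8.81 to 9.09 and 9.39 to 9.72. Both separated all 3 sets. The GINS complex has 4 subunits, and on their brightest probe sets they fell into pairs. GINS1 (10.24 to 10.32, 10.94 to 11.41 and 11.46 to 11.77) and GINS2 (9.37 to 9.53, 10.05 to 10.41 and 10.57 to 11.05) were graded. GINS3 and GINS4 were low on the 3 arrays, at 8.54 to 8.70 and 6.76 to 7.07. On the 6 arrays they lay at 8.99 to 9.32 and 7.19 to 7.63, overlapping the 9.13 to 9.67 and 7.23 to 7.72 of the 15. GINS4, at a mean of 7.384, lay under the median gene's level, and its pattern depended on the probe set. Its other probe sets were not lowest on the 3 arrays. The brightest of these, at a mean of 7.377, lay at 7.13 to 7.35 on the 3 and 7.19 to 7.64 on the 15.

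**Figure D2:**
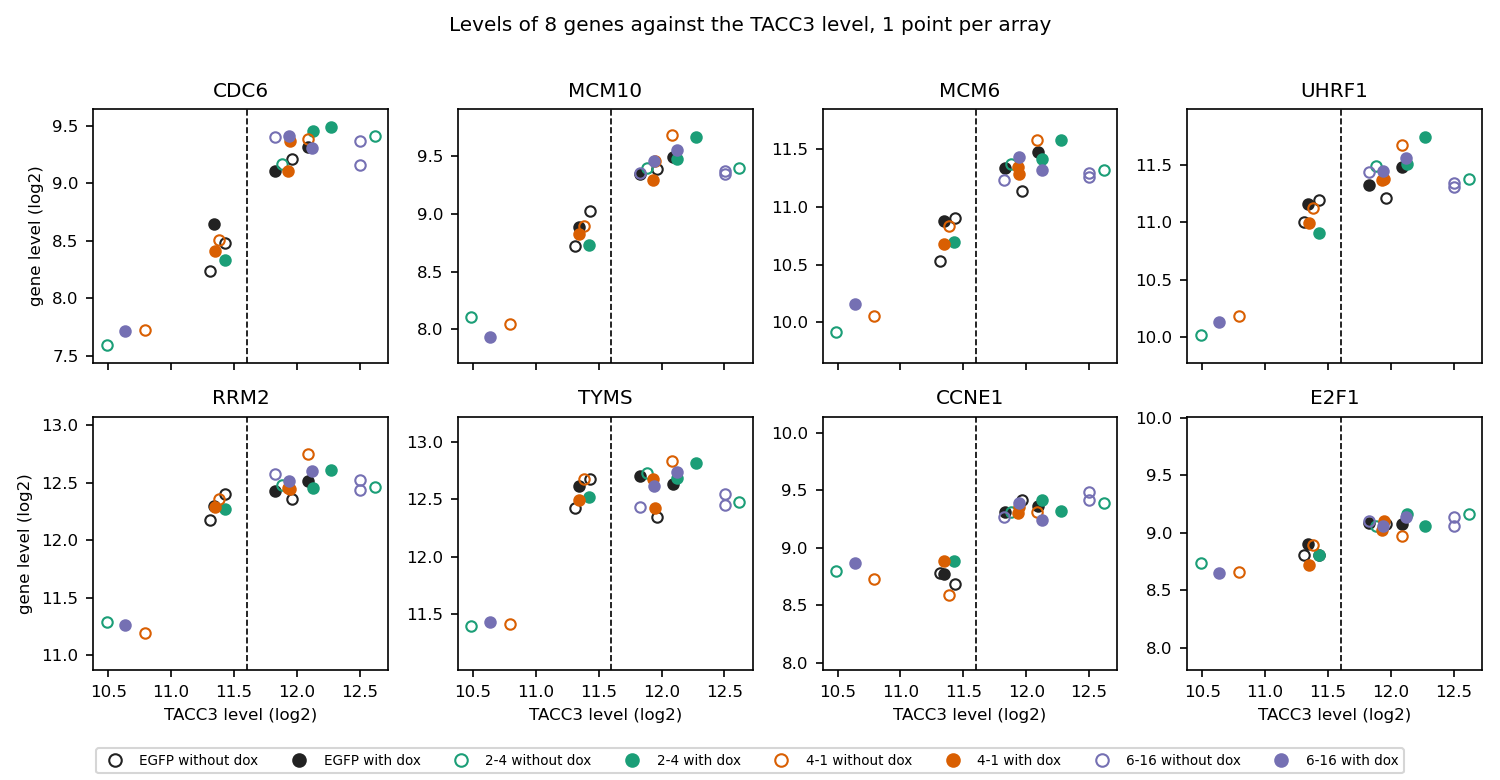
Log2 level of 8 members (vertical axes, 1 panel each, all of the same height in log2 units) against the log2 level of TACC3 (horizontal axes), 1 point per array, with line as colour and doxycycline as filled points; the dashed line is the cut, between 11.43 and 11.82. On the brightest probe sets, shown here, CDC6, MCM10, MCM6 and UHRF1 show 3 steps. RRM2 and TYMS are low on 3 arrays, and CCNE1 and E2F1 are low on 9.

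The polymerases and primase varied less. All 7 were lowest on the 3 arrays and 2 were graded, both accessory subunits. POLA2, the second subunit of polymerase alpha, lay at 8.30 to 8.40, 8.70 to 8.90 and 9.13 to 9.49, and POLE2, that of polymerase epsilon, at 8.83 to 8.95, 9.24 to 9.54 and 9.85 to 10.15. The catalytic subunits POLA1, POLE and POLD1 were low on the 3 arrays only. POLE had among the narrowest ranges, 0.83 or 1.77-fold, with a median of 8.96 on the 3 arrays, 9.53 to 9.61 on the 6 and 9.55 to 9.77 on the 15. PRIM1 and PRIM2 form the primase that lays down RNA primers, and they lay at 10.42 to 10.77 and 8.87 to 9.11 on the 6 arrays. On the 15 they lay at 10.25 to 10.96 and 8.88 to 9.49, overlapping the 6 in both.

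PCNA, the sliding clamp, had the second narrowest range of all members, 0.71 or 1.63-fold, and was still graded. It lay at 12.56 to 12.58 on the 3 lowest arrays, 12.97 to 13.10 on the 6 and 13.11 to 13.27 on the 15. The clamp loader subunits RFC2, RFC3 and RFC4 were graded over wider ranges, such as 9.07 to 9.10, 9.48 to 9.84 and 9.95 to 10.41 for RFC2. FEN1, which trims the flaps of Okazaki fragments, lay at 10.13 to 10.25, 10.65 to 10.92 and 11.11 to 11.40. For LIG1, which seals them, the highest of the 6 arrays met the lowest of the 15 at 9.74, with 9.06 to 9.18 on the 3 lowest.

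RFC5 stood apart from its fellow subunits on its brightest probe set. There it lay at 10.30 to 10.99 on the 3 lowest arrays, 10.64 to 11.03 on the 6 and 10.39 to 11.19 on the 15, so the 3 sets overlapped, although its lowest value was on 1 of the 3 lowest arrays. Its other 2 probe sets did not share this. They lay at 9.22 to 9.37 and 8.74 to 8.86 on the 3 lowest arrays, under the 9.63 to 10.27 and 9.37 to 9.78 of the 15. On its brightest probe set, RFC5 was also the 1 member whose spread within labelled groups did not exceed that over all arrays. The labels held 58.8% of the variance of that probe set, against 9.09% to 25.6% for the other 38 members. This share was not computed for its other 2 probe sets.

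On their brightest probe sets, 3 of the 4 genes that supply deoxynucleotides were low on the 3 arrays only. TYMS makes thymidylate. TYMS had levels of 12.68, 12.34 and 12.42 without and 12.63, 12.70 and 12.62 with doxycycline on the arrays labelled EGFP. In the line labelled 2-4 these were 12.73, 11.40 and 12.48 without and 12.68, 12.51 and 12.81 with doxycycline, and in 4-1 they were 11.41, 12.68 and 12.83 without and 12.49, 12.42 and 12.67 with it. In 6-16 TYMS had 12.54, 12.43 and 12.45 without and 12.62, 11.43 and 12.74 with doxycycline. The 3 lowest arrays, at 11.40 to 11.43, stood apart from all others, and the 6 intermediate ones (12.42 to 12.68) lay within the 15 (12.34 to 12.83).

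TK1, the thymidine salvage kinase, lay at 10.12 to 10.26 on the 3 arrays, 11.13 to 11.44 on the 6 and 11.11 to 11.72 on the 15. RRM2, the S-phase subunit of ribonucleotide reductase, lay at 11.20 to 11.29, 12.17 to 12.41 and 12.36 to 12.75, so 1 end of the 6 reached into the 15. RRM1, its large subunit, was the 1 graded gene of the 4 on these probe sets, at 11.01 to 11.11, 11.53 to 11.67 and 11.76 to 12.08. The other probe sets of RRM1 and RRM2 swapped these patterns. On that of RRM2 the 3 arrays were lowest, the 9 low arrays reached 12.27 and the 15 began at 12.40. On that of RRM1 the 3 were lowest too, but the 9 reached 10.20 and the 15 began at 10.19.

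On their brightest probe sets, 0 of the 4 genes of G1/S control were graded. Dimmer probe sets of E2F1 and CDC25A, set out below, were graded. CCNE1 encodes cyclin E1, the partner of CDK2 at the G1/S border. CCNE1 had levels of 8.69, 9.41 and 8.78 without and 9.36, 9.31 and 8.77 with doxycycline on the arrays labelled EGFP. In the line labelled 2-4 these were 9.31, 8.80 and 9.39 without and 9.41, 8.88 and 9.32 with doxycycline, and in 4-1 they were 8.73, 8.59 and 9.31 without and 8.88, 9.35 and 9.30 with it. In 6-16 CCNE1 had 9.41, 9.27 and 9.49 without and 9.39, 8.87 and 9.24 with doxycycline. It lay at 8.73 to 8.87 on the 3 lowest arrays and at 8.59 to 8.88 on the 6, a full overlap, and at 9.24 to 9.49 on the 15. Its lowest value was on 4-1 without doxycycline replicate 2, 1 of the 6. On its brightest probe set the 9 low and 15 upper arrays were thus 2 levels, not 3. The other CCNE1 probe set did not separate them, at 6.94 to 7.14 on the 9 and 6.91 to 7.21 on the 15.

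E2F1, the activating transcription factor, had the same step over the narrowest range of all members, 0.52 or 1.43-fold. E2F1 had levels of 8.81, 9.08 and 8.80 without and 9.07, 9.09 and 8.90 with doxycycline on the arrays labelled EGFP. In the line labelled 2-4 these were 9.06, 8.74 and 9.16 without and 9.16, 8.81 and 9.06 with doxycycline, and in 4-1 they were 8.66, 8.89 and 8.97 without and 8.72, 9.10 and 9.03 with it. In 6-16 E2F1 had 9.13, 9.10 and 9.06 without and 9.06, 8.65 and 9.14 with doxycycline. It lay at 8.65 to 8.74 on the 3 lowest arrays, 8.72 to 8.90 on the 6 and 8.97 to 9.16 on the 15. On its other probe set the 3 arrays lay lowest as well, at 8.28 to 8.42 against 8.88 to 9.09 on the 15, so the overlap of the 3 with the 6 depended on the probe set.

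CCNE2 encodes the second cyclin E. It lay at 9.21 to 9.22 on the 3 lowest arrays, but at 9.98 to 10.32 on the 6, overlapping the 10.15 to 10.65 of the 15. Both cyclin E genes were thus low on the 3 arrays, and on the 6 intermediate ones CCNE1 was low while CCNE2 overlapped the upper arrays. CDC25A, the phosphatase that activates CDK2, lay at 8.10 to 8.16, 8.07 to 8.55 and 8.50 to 8.94, so the 6 reached into the 15. Its 2 dimmer probe sets differed. One lay at 4.88 to 5.37 on the 3 arrays and at 6.25 to 6.87 on the 15, with no overlap between the 9 and the 15. The other lay at 6.97 to 7.04 on the 3 and 7.03 to 7.38 on the 15, which overlapped.

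UHRF1, which recruits the maintenance methyltransferase to newly copied DNA, followed the helicase genes. It had the third widest range, 1.72 or 3.30-fold, and lay at 10.02 to 10.19, 10.91 to 11.20 and 11.21 to 11.74. The upper end of the 6 and the lower end of the 15 nearly met.

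The 39 genes were represented by 74 probe sets, and 16 members had 1 each. Of the 35 probe sets not used, 27 were also lowest on the 3 arrays and 12 also lay lower on all 9 low arrays. With any probe set of a gene counted, 38 members were lowest on the 3 arrays, against 5.2% of all genes, and 24 lay lower on the 9, against 4.05% of all genes. The largest disagreement with the brightest probe set was for 1 of the 2 dimmer ones of GINS2, which lay at 8.06 to 8.14 on the 3 lowest arrays and 7.82 to 8.19 on the 15. The other lay at 5.95 to 6.24 and 6.51 to 7.13 and was lowest on the 3. Next came CDC25A and RFC3. A dimmer RFC3 probe set lay at 6.89 to 6.93 on the 3 lowest arrays and 6.97 to 7.28 on the 15. Unlike the brightest one, it reached 7.43 on the 9 low arrays, with a median of 7.18 there against 7.12 on the 15.

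Further cell cycle genes, from lists of known members, gave the setting. Of 43 further replication genes measured, 32 (74.4%) were lowest on the 3 arrays and 5 were graded. Those that lay lower on all 9 low arrays were POLD2, RNASEH2A, SLBP, E2F3, TIPIN, DSCC1 and DNMT1, 7 in all (16.3%). ORC2, ORC4, ORC5, MCM9 and RPA2 were among the 11 that were not lowest on the 3. Of 22 G2/M genes, all 22 were lowest on the 3 arrays, and 1 (4.55%), CDC20, lay lower on all 9. The median G2/M gene lay -0.81 to -0.74 from its own mean on the 3 lowest arrays, close to the members, but -0.07 to 0.07 on the 6 and -0.12 to 0.36 on the 15. On the 6 arrays the G2/M values thus fell inside those of the 15, while the members' -0.24 to -0.02 lay under their own 0.06 to 0.38 on the 15. These are counts and ranges with no test of the difference between the lists.

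**Figure D3:**
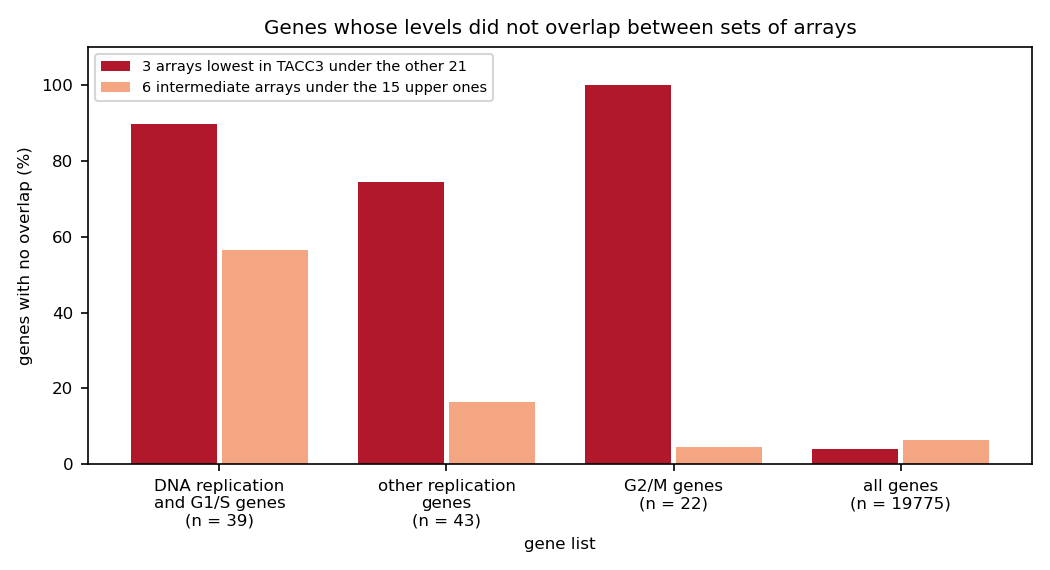
Share of genes (vertical axis, %) in each of 4 sets (horizontal axis, with the number of genes) whose levels on the 3 arrays lowest in TACC3 lay under all other 21 (dark bars), and whose levels on the 6 intermediate arrays lay under all 15 upper ones (light bars). The light bar is 56.4% for the members, 16.3% for other replication genes, 4.55% for G2/M genes and 6.33% for all genes.

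Upstream of these genes, 0 of 15 cell cycle inhibitors, D cyclins and related genes measured lay lower or higher on all 9 low arrays. Over all genes 3.09% lay lower and 2.9% higher, so 0 in a list this short is near that share. On the 3 lowest arrays, 2 of the 15 (13.3%) were highest, against 6.38% of all genes, and 2 (13.3%) were lowest, against 4.06%. The highest were E2F5 and CDKN1A, which encodes the CDK inhibitor p21. CDKN1A lay at 10.20 to 10.31 there against 9.64 to 10.01 on the others. Other CDK inhibitors were not highest there. CDKN1B lay at 11.36 to 11.39, with 11.40 to 11.62 on the 6 and 10.93 to 11.44 on the 15. CDKN1C lay at 7.20 to 7.40, with 7.55 to 7.74 and 6.90 to 7.62. RB1 and MYC were lowest on the 3, MYC at 10.60 to 10.82, with 10.94 to 11.08 on the 6 and 11.00 to 11.49 on the 15. CCND1, the main D cyclin of epithelia, lay at 10.16 to 10.53 on the 9 and 10.45 to 10.84 on the 15.

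Measures of RNA quality ran higher on the low arrays, with some overlap with the 15, and some epithelial markers differed, in both directions. The excess of 3' over 5' signal for GAPDH was 0.28 to 0.42 on the 9 low arrays and 0.20 to 0.29 on the 15, and that for ACTB was 0.79 to 1.17 and 0.70 to 0.97. On the 3 lowest arrays it was 0.37 to 0.42 and 1.01 to 1.17. Of the 12 epithelial markers, UPK1A (12.08 to 12.97 against 10.01 to 11.36), CDH1 (12.76 to 13.07 against 12.46 to 12.65) and GATA3 (13.46 to 13.66 against 13.09 to 13.34) lay higher on the 9. KRT18, at 13.47 to 13.67 against 13.91 to 14.08, lay lower. The 3 higher ones were 25% of the 12, against 2.9% of all genes, and the 1 lower one 8.33%, against 3.09%. On the 3 lowest arrays KRT19, UPK1A, UPK2, GATA3 and KRT14, 5 of the 12 (41.7%), had their highest levels, against 6.38% of all genes, and KRT5 had its lowest. The median epithelial marker lay 0.23 to 0.28 above its own mean on these 3. Of the fibroblast and leukocyte markers, 0 of 10 and 0 of 8 lay lower or higher on all 9. Over all genes 3.09% lay lower and 2.9% higher, so 0 in lists this short is near that share. The fibroblast marker ACTA2, 1 of 10, was lowest on the 3 arrays, at 7.24 to 7.34, against 4.06% of all genes. The part of RNA quality or of epithelial state in the levels above was not tested.

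By label, the design asked whether doxycycline changed these genes in the FGFR3 hairpin lines and not in the EGFP line. No member passed in any comparison. Of the 39, 37 had a change above 0 with doxycycline in the line labelled EGFP, with a median log2 change of 0.18. In 2-4 it was 38 (median 0.32) and in 4-1 all 39 (median 0.25), while in 6-16 it was 2, with a median of -0.22. Over all genes 58.4%, 48.2%, 46.3% and 59% were above 0 in EGFP, 2-4, 4-1 and 6-16. The largest single values were 0.42 for MCM5 in EGFP, 0.48 for TK1 in 2-4, 0.42 for CDC6 in 4-1 and -0.57 for CDT1 in 6-16. Limma's test with Benjamini-Hochberg adjustment over all genes called 0 of 39 members in each of the 4 lines, beside 0% of all genes. The smallest adjusted p of a member was 0.975, 0.999, 1.00 and 0.690 in EGFP, 2-4, 4-1 and 6-16, and SEs ran from 0.12 to 0.50. At an unadjusted p under 0.05 there were 0, 1, 1 and 0 members, and 505, 487, 223 and 1539 of 19775 genes. With the replicate number as a block, limma called 1 gene in 6-16, and still 0 members.

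These directions rested on the 3 lowest arrays. Without 2-4 without doxycycline replicate 2, the median change in 2-4 was -0.048. Without 4-1 without doxycycline replicate 1, that of 4-1 was -0.083, and without 6-16 with doxycycline replicate 2, that of 6-16 was 0.12. With limma's array weights the medians were 0.14 in 2-4, 0.40 in 4-1 and 0.060 in 6-16, so that in 6-16 turned as well. In EGFP, which holds none of the 3, the median ran from 0.11 to 0.28 with 1 array left out. CDC6 had group means of 8.64 ± 0.51 (SD, n = 3) without and 9.03 ± 0.34 with doxycycline in EGFP. In 6-16 they were 9.31 ± 0.13 and 8.81 ± 0.95, and the larger SD was that of the group with 1 of the 3 arrays. MCM6 likewise had 11.26 ± 0.03 without and 10.97 ± 0.71 with doxycycline in 6-16. The median SD of a member was 0.42 within labels and 0.38 over all 24 arrays, and the labels held a median of 14.98% of a member's variance, against 26.4% over all genes.

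RFC5 was the member at an unadjusted p under 0.05 in both lines that had one. Its brightest probe set had 10.90 ± 0.09 (SD, n = 3) without and 10.62 ± 0.20 with doxycycline in 2-4, a log2 change of -0.27 ± 0.12 (SE) with a limma adjusted p of 0.999. In 4-1 it had 10.57 ± 0.23 and 10.94 ± 0.21, a change of 0.38 ± 0.12 with an adjusted p of 1.00. The 2 changes had opposite signs, and limma's F-test for differences among the FGFR3 hairpins gave RFC5 an adjusted p of 1.00. That F-test called 0 members and 0% of all genes, with 1 member and 636 genes at an unadjusted p under 0.05.

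**Figure D4:**
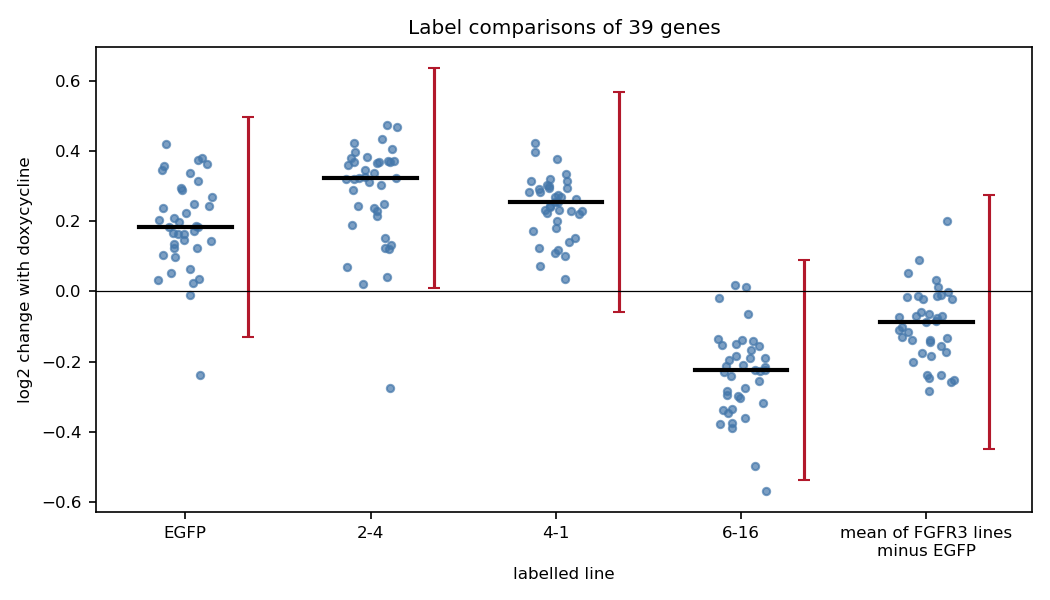
Log2 change with doxycycline of each of the 39 genes (points, vertical axis) in the 4 labelled lines and in the comparison of all FGFR3 lines with EGFP, as their mean change minus that of EGFP (horizontal axis). Black bars are the median over the genes and red bars are that median ± the median SE of a single gene. Medians are 0.18, 0.32, 0.25 and -0.22 in EGFP, 2-4, 4-1 and 6-16 and -0.09 in the contrast.

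The mean change of the 3 FGFR3 lines minus that of the EGFP line is the contrast closest to the design. It shares the EGFP arrays with the EGFP line change, so the signs of the 2 are linked. Its median over the members was -0.09, with 34 of 39 below 0 and a range of -0.28 to 0.20, against a median of -0.02 over all genes. Of the members 12.8% were above 0, against 43.8% of all genes. Limma called 0 of 39 members, beside 0% of all genes, and at an unadjusted p under 0.05 there were 0 members and 428 genes. The adjusted p was 1.00 for every member named here. CDC6 had -0.28 ± 0.58 (SE), with a 95% interval of -1.50 to 0.94, which spans large changes in both directions.

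The intervals were narrower for members with small ranges. E2F1 had -0.13 ± 0.16, with an interval of -0.47 to 0.21, and PCNA had -0.07 ± 0.21, with -0.51 to 0.37. CCNE1 had -0.14 ± 0.27 (-0.70 to 0.41) and CCNE2 had 0.03 ± 0.39. For the licensing factor ORC1 the value was -0.25 ± 0.36 (-1.01 to 0.50), and for MCM2 it was -0.10 ± 0.39 (-0.91 to 0.71). The helicase factors MCM10, CDC45 and GINS2 had -0.11 ± 0.50, -0.13 ± 0.45 and -0.17 ± 0.47. POLE2 had -0.15 ± 0.40, and UHRF1 had -0.06 ± 0.45. The nucleotide genes RRM2 and TYMS had the values nearest to 0 of those named, -0.01 ± 0.41 and -0.01 ± 0.40. Each value was smaller than its own SE, and the 95% intervals printed here all include 0.

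Without doxycycline, the FGFR3 lines and the EGFP line differed by a median of 0.03 over the members, with values from -0.15 (TYMS) to 0.21 (CDC6). Of the members 25 (64.1%) were above and 14 below 0, against 48.4% of all genes above 0. Limma called 0 of 39 members and 0% of all genes, with 0 members and 576 genes at an unadjusted p under 0.05. An F-test for any difference among the 8 labelled groups also called 0 members and 0% of all genes, with 1 member, RFC5, and 476 genes at that unadjusted level. The 43 other replication genes and 22 G2/M genes had 0 calls in all of these comparisons, and their signs in the lines ran the same way as the members', with 42 of 43 and 22 of 22 above 0 in 2-4 and 10 of 43 and 0 of 22 in 6-16.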

How the data were processed

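Expression was measured on Affymetrix 3' expression arrays, 24 in all. The authors deposited a log2 level for each of 54675 probe sets, made with RMA (background correction, quantile normalization and probe set summary) and the affy package per the submitters' processing notes, with no versions given. Quantile normalization removes any change shared by most genes. Array medians ran from 6.98 to 7.08, and the number of arrays limits the precision. Of the probe sets, 41097 had 1 gene symbol in the platform annotation, and the 1801 with several and 11777 with none were left out. Entrez identifiers matched a RefSeq table of GRCh38.p14 for 41043 probe sets, and 0 symbols changed. The probe set with the highest mean stood for each gene, with no filter on low values, which left 19775 genes.

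Label comparisons came from 1 limma model (version 3.58.1, R 4.3.3) with a mean for each of 8 groups, 16 residual and 3.13 prior degrees of freedom, and Benjamini-Hochberg adjustment over all genes at 0.05. The steps were tested on simulated data. The members and gene lists were chosen with earlier results of these data known. Fold change and test were given for 14 members named in advance by role, levels for all, and the members with the 3 widest and 3 narrowest ranges and the 3 with the most discordant probe sets were also named. No test was made between sets of arrays formed by the TACC3 level. Same-numbered arrays of a line deviated together, at correlations over genes above 0.1, in all 3 pairs of 2-4 (0.25 to 0.50) and of 6-16 (0.36 to 0.61). They did so in 2 of 3 pairs of EGFP and 1 of 3 of 4-1. This check comes from the data and not from the labels. The deviations within a group are tied by its mean, so the 3 correlations of a line are not independent. They cannot show whether the arrays were paired. The main model fitted no pairs, and the replicate block was 1 effect per number shared by all lines, not pairs within a line. Alternatives were the mean of all probe sets, a filter on low values, median-centred arrays, array weights, a variance trend, a replicate block, only the lines compared, and each array left out.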

Additional observations from a re-analysis of the deposited data

How the results depend on the processing

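Limma called 0 members in all of the comparisons under every alternative run. Over all genes, the count in the line labelled 6-16 went from 0 to 1291 with array weights, to 1 with the replicate block and to 1 with only the arrays of that line, and the F-test among the 8 groups went from 0 to 1 with array weights; the cause was not tested. In the contrast of the FGFR3 lines with the EGFP line, TYMS turned to 0.018 with the mean of all probe sets and to 0.029 with array weights, and RRM2 to 0.011 with array weights. Array weights also took the members' median from -0.22 to 0.060 in 6-16, from 0.32 to 0.14 in 2-4, from 0.25 to 0.40 in 4-1, from 0.18 to 0.28 in EGFP and from 0.03 to 0.13 between lines without doxycycline. With each array left out in turn, the contrast of the FGFR3 lines with EGFP crossed 0 for CCNE2 (-0.10 to 0.16), CDC45 (-0.33 to 0.026), MCM10 (-0.29 to 0.066), MCM2 (-0.24 to 0.039), PCNA (-0.14 to 0.0027), POLE2 (-0.37 to 0.0076), RRM2 (-0.16 to 0.13), TYMS (-0.16 to 0.13) and UHRF1 (-0.22 to 0.088). It kept its sign for ORC1 (-0.37 to -0.12), CDC6 (-0.57 to -0.080), GINS2 (-0.36 to -0.020), CCNE1 (-0.37 to -0.0070) and E2F1 (-0.22 to -0.081). With each array left out, the median of the members ran from 0.11 to 0.28 in EGFP, -0.048 to 0.53 in 2-4, -0.083 to 0.54 in 4-1, -0.42 to 0.12 in 6-16, -0.21 to 0.010 in the contrast and -0.055 to 0.13 between lines without doxycycline.

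The count of members lower on all 9 arrays with low TACC3 was 22 with the mean of all probe sets and 23 with median-centred arrays. Without the 3 lowest arrays, an alternative chosen after seeing the data, it was 22 again. This is the count given above for the intermediate arrays alone. Leaving out low arrays can only keep or raise the count, so this alternative could not have lowered it and is no check on it. The count lowest on the 3 arrays was 38 with the mean of all probe sets and 35 with median-centred arrays. The replicate block changed no other call.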
